A study of Homo sapiens with 4 samples.

Results

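Dense clusters of RepID binding, in which at least 4 called peaks followed each other along a chromosome with gaps of 1000 bp or less, were described together with the replication initiation regions mapped over them. On chromosomes 1 to 22 the RepID peaks were chained by this gap, and a peak was kept when its chain held 4 or more peaks and a wild-type initiation region lay within 2000 bp of it. This left 1401 peaks in 309 chains, which is 5.78% of all 24222 RepID peaks and 5.86% of the 23897 autosomal ones. The members were thus chosen by the called positions of RepID peaks and of WT regions, so their spacing, their RepID scores and their overlap with WT regions are given as a description without a test.

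Binding was measured by chromatin immunoprecipitation and sequencing (ChIP-Seq) with an anti-FLAG antibody in U2OS cells, an osteosarcoma line, that expressed FLAG-tagged RepID. Initiation was measured by sequencing short nascent DNA strands from HCT116 cells, a colorectal carcinoma line, either wild type (WT) or with RepID knocked out by CRISPR-Cas9 through a guide against the fourth exon of the gene (KO). The KO cells came from puromycin selection of stable clones after transfection, and how many clones were sequenced is not given in the sources used here. Genomic DNA of HCT116 cells was the control for calling both sets of initiation regions and was not analysed here. All cultures were asynchronous, the U2OS cultures were untreated, and no drug is named in the labels of the HCT116 cultures. Binding and initiation therefore came from different cell lines, and loss of RepID could only be read from the HCT116 lists. Each condition had 1 library, so no difference between WT and KO could be set against replicate error, and sequencing depth was unknown. The intervals given below cover counting error only, and they treat regions as independent although neighbouring peaks of a chain can share a region.

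RepID, also known as PHIP or DCAF14, is a chromatin protein with bromodomains and WD40 repeats that acts as a substrate receptor of CUL4-based ubiquitin ligases and binds a subset of replication origins. Origins are places where replication forks start; many more are licensed in G1 than fire in a given S phase, and initiation is often spread over zones rather than set at a point. Short nascent strands begin with an RNA primer, which shields them from lambda exonuclease, so their enrichment over genomic DNA marks where replication began.

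The chains were short and mostly made of 4 peaks. Of the 309 chains, 201 held 4 peaks, 74 held 5, 20 held 6, 9 held 7, 1 held 8, 2 held 9 and 2 held 10. Clustering of this kind was the rare end of a steep series, since the same chaining gave 12238 lone peaks, 3784 pairs and 893 triplets. Chain span, from the start of the first to the end of the last peak, had a median of 4148 bp, with quartiles of 3313 and 5083 bp and extremes of 1887 and 21230 bp. Span grew with the number of peaks, from a median of 3576 bp for chains of 4 to 4745.5 bp for chains of 5 and 6697.5 bp for longer ones. Across chains the 2 measures had a Spearman rho of 0.541, which is partly built in, because each added peak adds its own width.

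**Figure D1:**
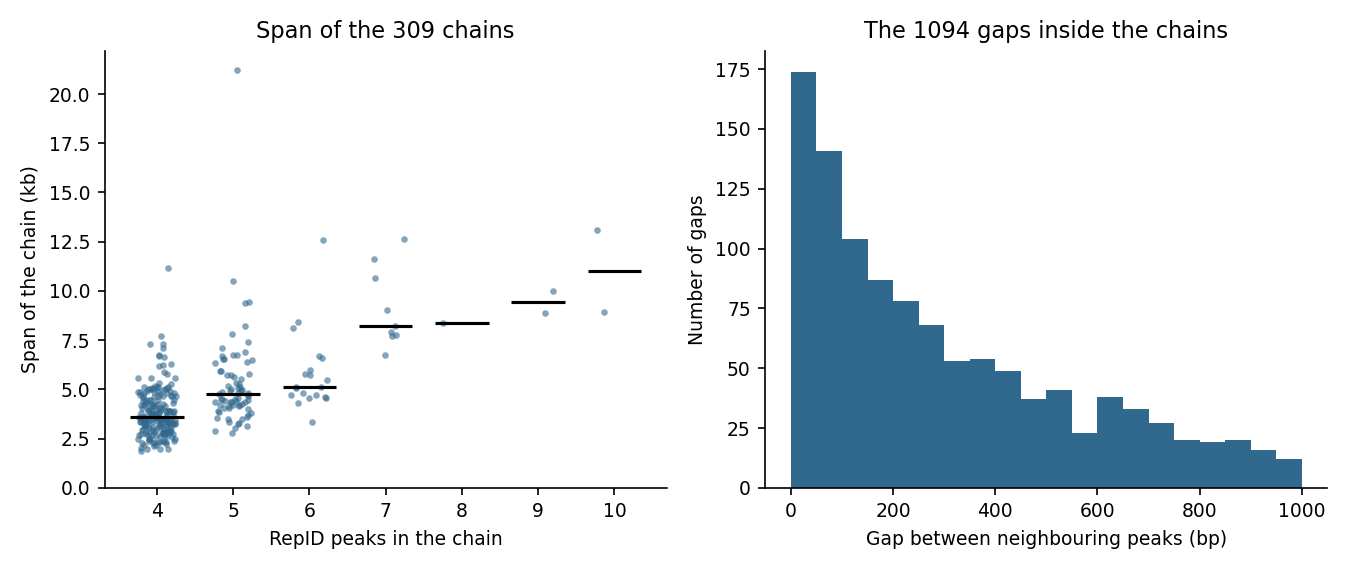
Left, chain span in kb against the number of RepID peaks in the chain, 1 point per chain (309 chains, shifted sideways for display) with a bar at the median. Right, the number of gaps between consecutive peaks inside chains by their length in bp (1094 gaps). Spans overlapped widely between chains of 4 and of 5 peaks, and short gaps were the most frequent, with a median of 223 bp.

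Peaks inside a chain stood close together. The 1094 gaps between neighbours had a median of 223 bp, with quartiles of 83.25 and 469 bp, and the distance between the centres of neighbours had a median of 974.5 bp. Peaks filled a median of 76.0% of a chain's span. The gap limit cut the distribution near its tail: 28 of the gaps were over 900 bp, the longest inside a chain was 998 bp and the shortest from a chain to the next peak outside was 1003 bp. That outside distance had a median of 6459 bp, and 58 chains had another peak within 2000 bp. In lone pairs and triplets with a WT region the median gap was 205 and 194 bp, so the spacing within the longer chains lay close to theirs.

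The spacing was uneven within a chain. The chain on chromosome 22 from 46465026 to 46478130 (hg19), with 10 peaks, spread them over 13105 bp with a median gap of 643 bp. Its peaks were 339 to 1470 bp wide, and its longest gap was 925 bp. The other chain of 10 peaks, on chromosome 1 from 41958678 to 41967595, was 8918 bp long and had a median gap of 154 bp. There the first peak stood 969 bp apart from the rest, while the third peak and the fourth were 1 bp apart, so that the called peaks nearly touched. The chain of 9 peaks on chromosome 20 from 56276846 to 56286857 had gaps from 16 to 702 bp, and that of 8 peaks on chromosome 5 from 1318166 to 1326539 had gaps from 77 to 461 bp.

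**Figure D2:**
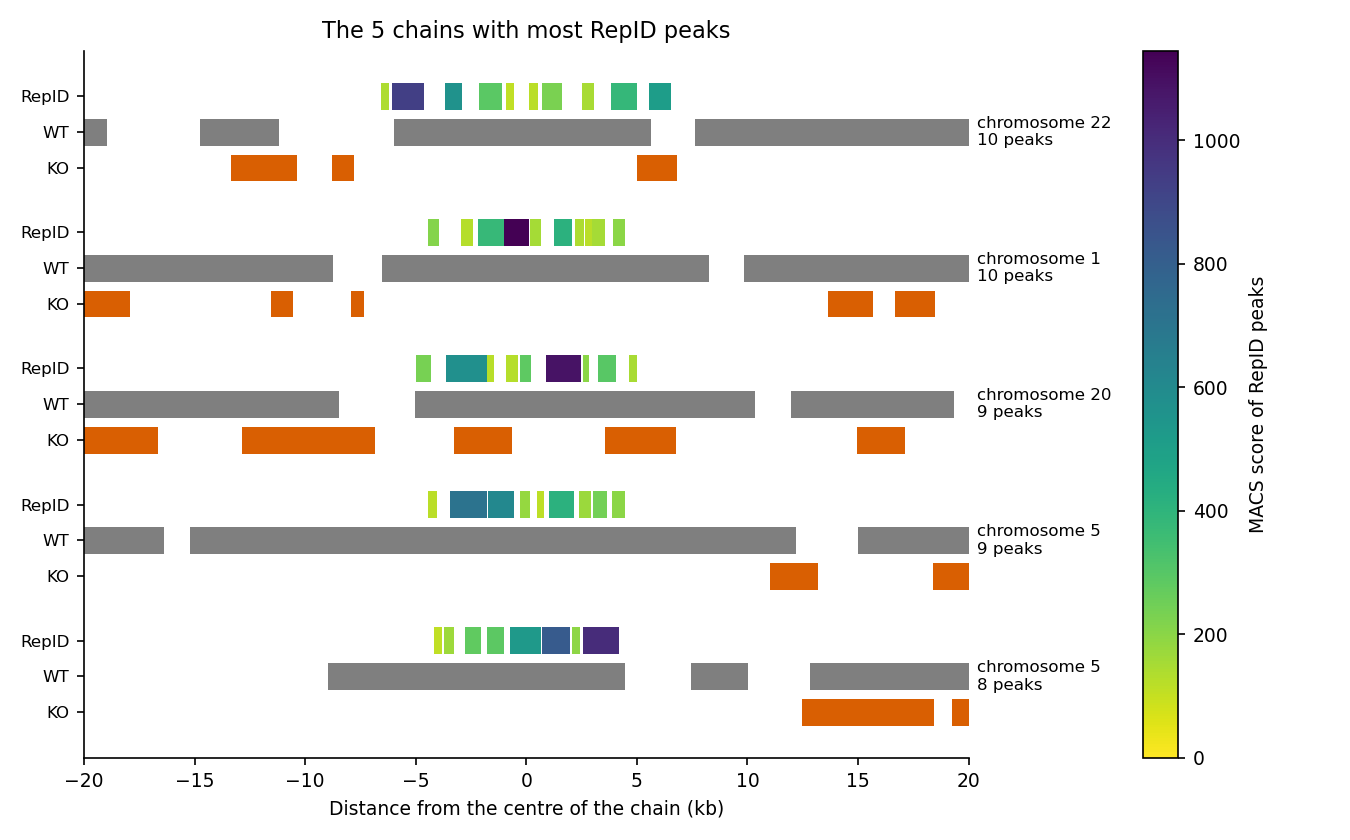
The 5 chains with most peaks, drawn by distance in kb from the centre of the chain and cut off at 20 kb, with RepID peaks coloured by MACS score, WT regions in grey and KO regions in orange. A WT region ran under the whole of 4 of the chains and under 88.5% of the chromosome 22 chain, and KO regions met the chains on chromosomes 22 and 20 but not the other 3.

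The height of the peaks, the score given by the MACS peak caller in the RepID list, was used by neither the gap nor the proximity rule, but it comes from the same peak calls and is given as a description. Clustered peaks had a median MACS score of 209.5, between 100.03, close to the floor of the list, and 3124.6. Single peaks with a WT region had a median of 203.0, pairs 209.1 and triplets 201.8, so the medians of clustered and lone peaks differed by far less than the spread within either. Their median width was 592 bp against 583 bp. Width and score rose together over the members, with a Spearman rho of 0.881.

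Within a chain the peaks were of very unequal height. The highest peak of a chain had a median score of 518.3 and the lowest 117.3, and the highest was a median of 2.03 times the chain's median peak, with a maximum of 10.4 times. Scores of neighbouring peaks were nearly unrelated in rank, with a Spearman rho of 0.0898 over 1094 pairs that share chains and 1 library. In the chromosome 22 chain of 10 the scores ran from 109.7 to 932.9 and the highest was the second peak. In the chromosome 1 chain of 10 the fourth peak reached 1145 while the other 9 lay between 119.9 and 414.5. In the chromosome 5 chain of 8 the highest, at 1003, was the last peak.

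The highest peak was not tied to the middle of a chain. It was an end peak in 127 of the 307 chains in which every peak was a member, and an inner peak in 180. In chains of 4 it stood at an end in 88 of 199, or 44.2%, where the end positions make up 50% of the places. The median score by place in chains of 4 was 183.8, 223.3, 243.7 and 183.5 from the first to the fourth peak. Inner places were thus modestly higher in chains of 4, and the quartiles of all places overlapped. Longer chains did not share this order. In chains of 5 the medians were 206.6, 217.3, 235.6, 184.7 and 222.8, so the lowest was an inner place. In chains of 6 the lowest, 157.7, was the third place.

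Some chains were made of very broad peaks. The longest chain, on chromosome 8 from 145007728 to 145028957, spanned 21230 bp with only 5 peaks, because the first peak was 11803 bp wide and the fourth 5291 bp. These 2 peaks scored 3100 and 2813, and the other 3 scored 153.7, 296.4 and 576.0. The chain with the highest score, on chromosome 7 from 2555097 to 2566275, held 4 peaks over 11179 bp. The first of them and the third, 4308 and 4991 bp wide, scored 3100 and 3124.6, while the other 2 scored 256.3 and 158.5. Exactly 3100 was the score of 32 peaks in the list and only 5 peaks scored higher, so the order among the highest peaks carries little information. The chain on chromosome 16 from 70725046 to 70732349 reached 2939 and that on chromosome 7 from 5458037 to 5469674 reached 2573.

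Clustered peaks, like single peaks that passed the same rule, lay almost always on a WT initiation region and not merely near it. Of the 1401 members, 1373 overlapped a WT region and the other 28 were within 1685 bp of it. Among the 10456 single peaks within 2000 bp of a WT region, 9940 overlapped one. The overlap is therefore not particular to clusters, and the proximity rule favours it in both groups. Only 11 peaks of such chains were left out by the WT rule, at 2065 to 36272 bp from a WT region, and 2 of the 311 chains had no WT region at all. In the chains kept, 239 lay wholly inside a single WT region, and 5 had under 50% of their span in WT regions, the lowest being 27.7% on chromosome 20 from 56320185 to 56324632. WT regions within 2000 bp of a member, called WT regions at chains here, numbered 355, and 310 of them overlapped a member. Within that distance 254 chains had 1 WT region, 52 had 2 and 3 had 3.

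These WT regions were long and high. Their median width was 10200 bp, against 2800 bp for the 9537 WT regions at single peaks and 2400 bp for all 78859 WT regions. WT regions at single peaks lay within 2000 bp of a lone peak and of no peak in a longer chain. Those at chains could also hold lone peaks, pairs or triplets. The rule thus takes regions with pairs or longer chains out of the single-peak group only, so part of these contrasts can be built in. Their median score in the WT list was 1518, against 231 at single peaks, and the median region stood at percentile 94.95 of all WT scores. Among them 239, or 67.3%, were in the top 10% of the list by score, as were 19.4% of WT regions at single peaks. Score and width are close to the same quantity in this list, with a Spearman rho of 0.937 over the 355 regions, and a wide region has more room for several peaks, so width and the number of peaks cannot be told apart here. Where a chain lay inside 1 WT region, its centre stood at a median of 51.9% along the region and its span took a median of 27.0% of the region's length. RepID height and WT height went only loosely together, with a Spearman rho of 0.212 between the highest MACS score and the WT score of the 309 chains.

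Of the 5 chains on the WT regions with the highest scores, 4 had a highest peak above 794.2, the upper quartile of all chains, and 1 did not. Those on chromosome 8 from 145007728 and from 142418766 reached 3100 and 2823, and that from 142407401 reached 935.0. The chain on chromosome 16 from 88518538 to 88523814 lay in a WT region 93600 bp wide with a score of 44372, while its 4 peaks scored 412.2, 1121, 163.1 and 102.7. On chromosome 11 from 842621 to 846211 the WT region was 94000 bp wide with a score of 27022, and the highest of 5 peaks scored 325.7. A single WT region on chromosome 8, from 142360001 to 142447600, carried 2 chains with 10 peaks together. In all, 10 WT regions lay within 2000 bp of 2 or 3 chains each and accounted for 22 chains, not all of which they contained.

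Clusters were unevenly spread over the chromosomes. Each of the 22 autosomes had a chain, with most on chromosome 17 (29 chains) and on chromosomes 1 and 22 (25 each). As a share of the chromosome's RepID peaks, members made up 10.6% on chromosome 22 and 8.89% on chromosome 9 but 1.20% on chromosome 4. Within 5 Mb of a chromosome's outermost mapped region lay 91 of the 309 chains, or 29.4%, compared with 26.9% of triplets, 19.1% of pairs and 17.6% of single peaks. WT regions were there in 16.6% of cases and KO regions in 8.50%. The KO list thus had a smaller share of its regions near chromosome ends than the WT list, and KO comparisons are given below also within and outside these ends.

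The KO list was used by no part of the rule, so overlap with it could be compared between clustered and other peaks. The list held 159667 regions, against 78859 in the WT list. The study's text describes a KO set smaller than the WT set, so the deposited KO list is not that set, and every KO share here rests on the list as deposited. With the KO list reduced to its highest-scoring regions, as many as in the WT list, 18.1% of members and 23.2% of single peaks were overlapped, a difference of -5.06 points (-7.16 to -2.81). A KO region overlapped 364 of the 1401 members, or 26.0% (exact binomial 95% interval 23.7 to 28.4), against a background of 29.1% over all autosomal RepID peaks with a WT region within 2 kb. Single peaks were overlapped in 33.0% of cases (32.1 to 33.9), pairs in 25.8% and triplets in 24.3%. Clustered minus single peaks gave a difference of -6.99 percentage points (Newcombe 95% interval -9.40 to -4.47). This interval excludes 0, but it counts the 1401 peaks of 309 chains as independent. Since 1 KO region can cover several peaks of a chain, it is too narrow to settle whether the difference exceeds counting error. Clustered peaks were not separated from paired peaks (difference 0.205, -2.24 to 2.76) or from triplet peaks (1.65, -1.14 to 4.50), but peaks in chains of 5, at 33.0%, were level with single peaks. The difference from single peaks shrank to -3.59 (-7.22 to 0.281) with chains of 5 or more and to -3.27 (-7.28 to 1.06) with RepID peaks of a MACS score of at least 150, and both of these intervals include 0. Taken at the centre of the peak, the shares were 19.8% for members and 23.6% for single peaks.

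The lower share was seen in most places where it could be read. Among the 14 chromosomes with at least 10 chains, members had a lower share than single peaks on 13. Elsewhere than the outer 5 Mb the shares were 27.1% and 34.2%, a difference of -7.02 points (-9.91 to -3.97). In the outer 5 Mb they were 23.4% and 27.4%, and the interval of the difference, -8.30 to 0.645, reached 0. Chromosomes differed far more than peak classes did: 1 of 70 members on chromosome 5 (1.43%) and 3 of 80 on chromosome 19 (3.75%) met a KO region, against 37 of 70 on chromosome 8 (52.9%). Single peaks on chromosome 8 had a share of 55.2%, on chromosome 19 of 20.5% and on chromosome 5 of 34.7%. The number of KO regions per WT region was 0.733 on chromosome 19 and 2.75 on chromosome 8, and its part in these shares was not tested.

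The centre of a chain, midway between its outer ends, is a point and does not become easier to hit with length. KO regions covered 59 of 309 chain centres, or 19.1% (14.9 to 23.9), against a background of 21.1% for chains of any length. Single peaks stood at 23.6%, pairs at 15.3% and triplets at 15.9%. The difference from single peaks was -4.47 points with an interval of -8.55 to 0.347 that includes 0, and it changed sign when only chains of 5 or more peaks or only RepID peaks with a MACS score of at least 150 were used, so no direction is read from it. As spans, which are hit more easily when long, 137 of the 309 chains met a KO region, or 44.3%, against a background of 33.8%. KO regions covered a mean of 19.4% of a chain's span (16.2 to 22.6, n = 309 chains).

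**Figure D3:**
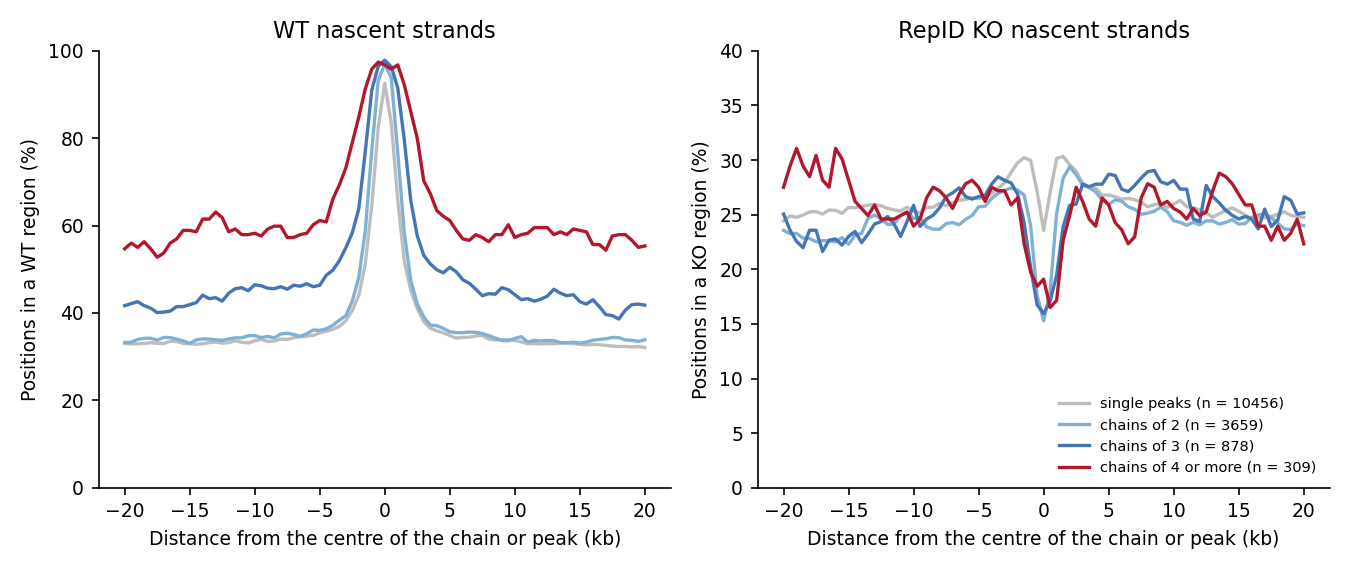
Percent of positions covered by WT regions (left) and by KO regions (right) against distance in kb from the centre of the chain or single peak, for chains of 4 or more, triplets, pairs and single peaks. WT coverage peaked over the chains and fell off towards both sides, whereas KO coverage was 19.1% at the centre and averaged 26.7% at 15 to 20 kb over both sides. At 20 kb it was 27.5% on the left and 22.3% on the right.

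Around the chains, KO coverage was lower at the middle of the cluster than beside it. It was 19.1% at the centre, 16.5% at 500 bp to the right of it, which was the lowest of the positions sampled every 500 bp out to 20 kb, and 26.7% on average from 15 to 20 kb away. The sides differed, with 28.2% at 15 kb and 27.5% at 20 kb to the left but 26.9% and 22.3% to the right. The value at 20 kb to the right lies inside the interval of the centre, 14.9 to 23.9, and the other positions have no interval. WT coverage was 89.97% at the chain edges, 62.9% at 2 kb outside them and 54.0% at 20 kb outside. KO coverage was 24.6% at the edges, 27.3% at 2 kb outside, 25.1% at 5 kb, 24.4% at 20 kb and 24.1% at 50 kb, so the edges were not below the distant flanks. Single peaks showed a dip of the same kind, from 23.6% at the centre to 30.3% at 1500 bp and 25.01% at 15 to 20 kb, and so did pairs, whose centre had 15.3%.

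**Figure D4:**
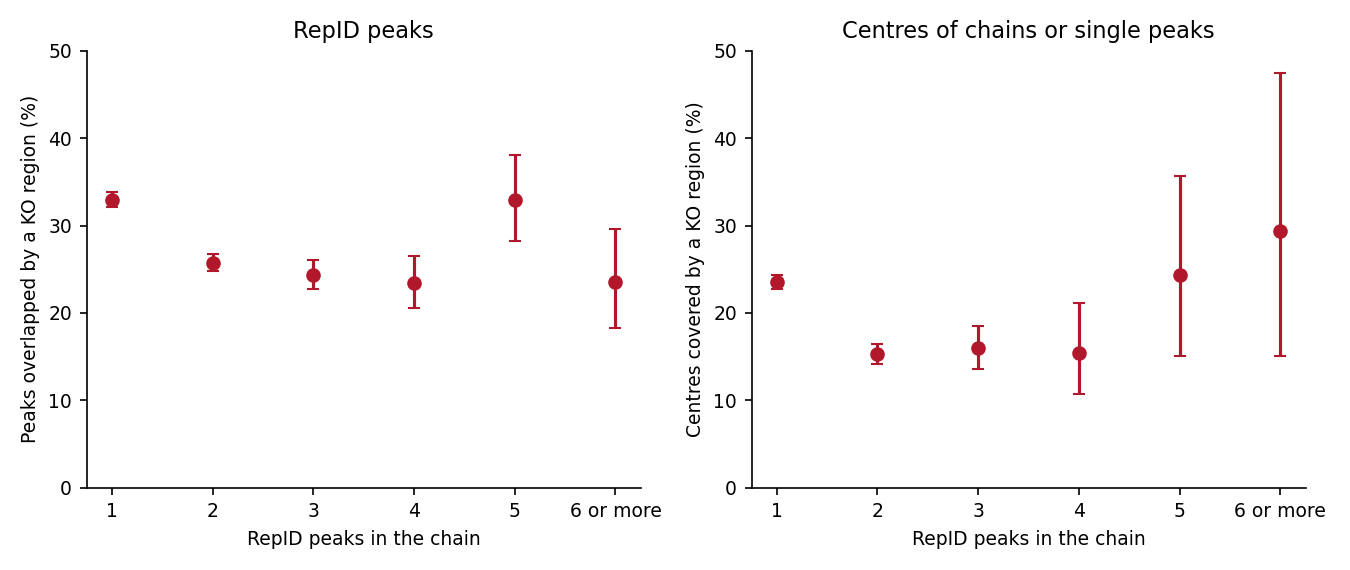
Percent of RepID peaks overlapped by a KO region (left) and percent of centres covered by one (right) by number of peaks in the chain, with exact binomial 95% intervals for counting error. Shares of peaks fell from 33.0% for single peaks to 24.3% for triplets, and the intervals for chains of 5 and of 6 or more were wide.

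Chain length did not order the KO shares in a simple way. Centres were covered in 15.4% of chains of 4 (10.7 to 21.2), 24.3% of chains of 5 (15.1 to 35.7) and 29.4% of the 34 longer chains (15.1 to 47.5). Chains of 5 or more were above chains of 4 by 10.5 points (1.25 to 20.5). By peaks the shares were 23.4%, 33.0% and 23.6%, with chains of 5 highest and the longest chains back at the level of chains of 4. In the chain of 10 peaks on chromosome 22, a KO region of 1800 bp covered the tenth peak whole and no other. The chain of 10 on chromosome 1, whose WT region was 14800 bp wide, met no KO region, and neither did its WT region. The same held for the chain of 8 on chromosome 5. The chain of 9 on chromosome 20 met 2 KO regions, which touched 5 of its peaks and left its highest peak, at 1088, free.

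Chains fell into 4 states by the KO list. In 12 chains KO regions covered the whole span, and in 125 they covered part of it. In 87 a KO region met the WT region but not the chain, and in 85 neither the chain nor its WT regions met any. The same states are not given here for single peaks, pairs or triplets. Whether these counts are unusual for clusters was therefore not tested. The 85 chains without KO signal had a median span of 3959 bp and a median WT score of 1020. The 87 with a KO region on the WT region alone had 3899 bp and 3647, the highest WT score of the 4 states. Chains with part of the span covered had 4450 bp and 1869, and those fully covered had 4434 bp and 2518. In the same order, the highest-scoring WT region of a chain had a median width of 7400, 21800, 12800 and 15000 bp. A wide WT region is met by a KO region more easily, and width and score rise together. The order of WT scores is therefore partly built into the states. In the same order the highest MACS scores had medians of 475.8, 527.6, 554.4 and 410.9, and the ranges of all 4 states overlapped. Across the 309 chains the share of span in KO regions had a Spearman rho of 0.0375 with the WT score and 0.0148 with the highest MACS score.

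Chains without KO signal included the one with the highest MACS score and others on WT regions with high scores. The chromosome 7 chain with the highest MACS score lay in a WT region 53800 bp wide with a score of 16830, and no KO region met either. The chain on chromosome 22 from 50729504 to 50733440 had 4 peaks scoring up to 283.9 on a WT region scoring 19610, and that on chromosome 16 from 2197810 to 2201064 had a WT score of 17827, each without a KO region. So had the chain on chromosome 1 from 956509 to 960886, with 5 peaks and a WT score of 17336, and the chain on chromosome 9 from 140133313 to 140137969, with a WT score of 15502. These chains were picked by WT score. Apart from the chromosome 7 chain, their highest peaks scored 252.5 to 475.8, below the median of 518.3 over all chains. A list entry is present or absent at the caller's threshold, so an absent KO region says that none was called, not that initiation was at 0.

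At the other end stood the fully covered chains. On chromosome 21 from 9877945 to 9882476, the only chain of that chromosome, a KO region 68600 bp wide with a score of 7045 ran past both ends of the WT region, which was 20200 bp wide with a score of 3512. Its 5 RepID peaks scored between 142.9 and 501.8. On chromosome 17 from 21248137 to 21254340 the KO region was 23400 bp wide and scored 1739, and the WT region scored 3537. On chromosome 16 from 88148112 to 88153865 a KO region of 39000 bp, scoring 1723, covered 5 RepID peaks on a WT region of 9400 bp. The chain on chromosome 10 from 80722094 to 80725565 lay in a KO region of 22800 bp and that on chromosome 17 from 75415361 to 75420041 in 1 of 14600 bp. WT and KO scores came from separately called lists, so they are not compared between the lists.

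KO regions at chains stood only moderately above the middle of their list. The 166 KO regions over chains were 3800 bp wide at the median, where all KO regions were 3000 bp, and scored 154.5 at the median, where all KO regions scored 130. By score they had their median at percentile 63.4 of the KO list, and the WT regions at chains at percentile 94.95 of the WT list. Wide regions meet a chain more easily, and neither percentile was adjusted for width. The KO regions had to overlap a chain, whereas the WT regions lay within 2000 bp of a member and took part in choosing the members. The percentiles are therefore not compared with each other.

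Within chains, KO coverage was seldom even. Of the 137 chains met by a KO region, 28 had every peak touched and 109 only some. KO regions over chains had a median width of 3800 bp and chains a median span of 4148 bp, so partial cover is partly built in. The same counts are not given here for pairs or triplets, so they are not read as a trait of clusters. A KO region lay over at least an edge of 119 chains and over both edges of 33. The centre was free while an edge was covered in 73 chains, and the reverse held in 13, where each chain has 2 edges and 1 centre. Centres of outer peaks were covered in 22.4% of cases (19.2 to 25.9) and those of inner peaks in 17.7% (15.1 to 20.6). These intervals overlap, and they ignore that outer and inner peaks share chains.

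The highest peak of a chain was covered less often than the lowest. Its centre lay in a KO region in 48 of 309 chains, or 15.5% (11.7 to 20.1). For the lowest peak this was 73 of 309, or 23.6% (19.0 to 28.8). Both peaks come from the same chain, so these intervals, which overlap slightly, ignore the pairing and do not decide the contrast. In 44 chains only the lowest of the pair was covered, in 19 only the highest, in 29 both and in 217 neither. Among the 109 partly touched chains, however, the touched peaks had the lower mean MACS score in 54, so no such order was seen over whole chains. The chain on chromosome 8 from 142418766 to 142431368 gave an example of a high peak left free. Its first and second peaks, at 494.0 and 149.4, lay whole in a KO region of 14400 bp, the third was covered for 18.9%, and the fifth, at 2823, was not met. The same KO region covered all 4 peaks of the neighbouring chain from 142407401 to 142412483, whose scores ran from 192.9 to 935.0.

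At the level of whole WT regions the picture turned on width. Of the 355 WT regions at chains, 236 were overlapped by a KO region, or 66.5% (61.3 to 71.4), against a background of 60.6% for all WT regions and 56.4% for those at single peaks. The difference from single peaks was 10.0 points (4.89 to 14.9). When single-peak regions were weighted to the widths of the chain regions, however, their share was 74.0% and the difference was -7.55 points (-12.6 to -2.48). With the criterion set at 50% of the WT region covered, the unweighted share was 22.8% against 32.4%, a difference of -9.63 points (-13.8 to -4.89), so the higher plain share turned into a lower one. WT centres were covered in 27.3% and 32.5% of cases.

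**Figure D5:**
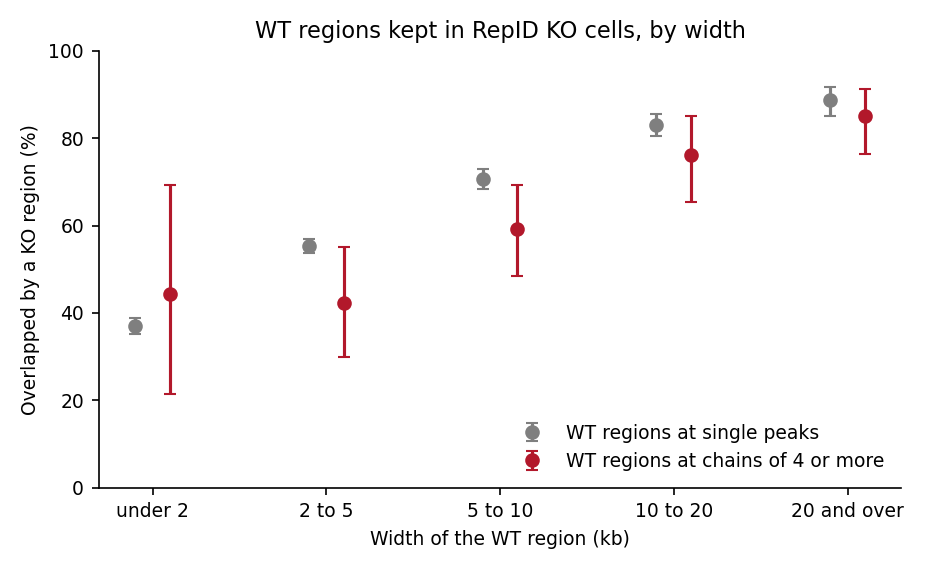
Percent of WT regions overlapped by a KO region, by WT width in kb, for regions at chains and at single peaks, with exact binomial 95% intervals for counting error. The share rose with width in both groups apart from the narrowest regions at chains, of which there were 18, and from 2 kb upwards it was lower at chains in each width class.

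Within width classes the regions at chains were kept less often in 4 of 5. From 2 to 5 kb, 42.2% of 64 regions at chains and 55.3% of 3893 at single peaks were overlapped, a difference of -13.1 points (-24.5 to -0.763). From 5 to 10 kb the shares were 59.1% and 70.6% (-11.5, -21.9 to -1.78). From 10 to 20 kb they were 76.3% and 83.1%, and at 20 kb or more 85.0% and 88.6%, where the intervals of the differences, -17.5 to 1.601 and -12.4 to 3.08, included 0. Below 2 kb only 18 regions at chains were available, of which 44.4% were overlapped against 37.1% at single peaks.

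Inside the WT regions at chains, KO coverage was lowest in the clustered peaks. KO regions covered 19.5% of the bases in these peaks and 23.6% of those in the gaps between them, over 1049 and 313.2 kb. They covered 29.0% of the 4536 kb in the rest of the same WT regions. That rest could also hold lone peaks, pairs or triplets, so it is not a part free of RepID. At single peaks the corresponding shares were 22.96% in peaks and 36.5% in the rest of the WT region.

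WT regions with several chains within 2000 bp differed widely in this respect. The region on chromosome 20 from 60924801 to 60955200 held 3 chains with 15 RepID peaks and met no KO region over its 30400 bp. A second on the same chromosome, from 61423001 to 61472200, met 3 chains with 14 peaks, 1 of which began just outside it, and had 11.4% of its 49200 bp in KO regions, which reached 1 of its chains. On chromosome 17 the region from 27891401 to 27925200, with 2 chains and 8 peaks, had 5.92% of its length in a KO region that met neither chain. In contrast, the region on chromosome 8 from 145647601 to 145705800 had 50.2% of its length in 8 KO regions, which met both of its chains.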

How the data were processed

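Nascent strands of HCT116 WT and RepID KO cells and RepID ChIP-Seq of U2OS cells (1 library each) were used as region lists. In the deposited files the authors gave positions on hg19 and a score for each region, with no read counts. The submitters' processing notes name MACS and SICER. The RepID score was read as a MACS score, and how the WT and KO score was made is not given in the sources used here. WT and KO regions start and end on a 200 bp grid. No values were normalized further.

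Members were chosen, and the comparisons set, with earlier results of these data known. RepID peaks were chained at gaps of up to 1000 bp. Chains named in the text are the 5 with the most peaks, longest span, highest MACS score, highest WT score, highest KO share of span, and highest WT score without a KO region, beside WT regions shared by chains and a chain with low WT coverage, chosen after their values were seen. An overlap was 1 bp unless stated. With 1 library per condition no test was made. Intervals (95%) were exact binomial (Clopper-Pearson) for shares, Newcombe for differences, and stratified normal after weighting. Alternative gaps, chain lengths, MACS minimum, KO lists and overlap criteria were planned, and peak centres and weighting by chromosome, chromosome end or WT width of centres were added after the values were seen. Tables were handled with pandas 2.3.3 and numpy 2.4.6, intervals came from SciPy 1.17.1 under Python 3.11.15, and the scripts were tested on simulated data and against bedtools 2.31.1. The genes at the chains and the DNA sequence under them are not given, because no hg19 genome or annotation was used here, and chains are named by coordinate.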

Additional observations from a re-analysis of the deposited data

Results flagged for a closer look

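Clusters also occurred on chromosome X, which the autosomal rule leaves out. The same chaining gave 6 chains of 4 or more RepID peaks with a WT region within 2000 bp there, and these were singled out because the comparisons of peaks and chains above are autosomal, although the values over all WT regions include chromosome X. They spanned 2410 to 5278 bp, with highest MACS scores from 272.1 to 493.0, and KO regions overlapped 0 of the 6. The KO share over all RepID peaks of chromosome X is not given here, so this count is not read as a trait of clusters. The KO list held 190 regions on chromosome X against 1304 in the WT list, whereas over the genome the deposited KO list was the longer one. The cause was not tested.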

How the results depend on the processing

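Of 100 alternative values, 59 stayed close to the main one, 40 moved beyond its counting interval or by over 1.5 times and 1 reversed. At a gap limit of 500 bp there were 735 members in 168 chains, and at 2000 bp 2165 members. With chains of 5 or more there were 599 members in 108 chains, KO shares of 29.4% of peaks, 25.9% of centres and 50.9% of chains, a mean span share of 23.6%, and differences from single peaks of -3.59 points for peaks and 2.36 for centres. With chains of 6 or more there were 229 members in 34 chains, 23.6% of peaks, 29.4% of centres and a centre difference of 5.85. With RepID peaks scoring at least 150 there were 475 members in 110 chains, with 28.6% of peaks, 51.8% of chains, 22.9% of span and 73.0% of WT regions met by KO, and differences of -3.27 for peaks, 1.80 for centres and 17.2 for WT regions. With as many top-scoring KO regions as WT regions the shares were 18.1% of peaks, 13.9% of centres, 30.7% of chains, 14.3% of span and 46.5% of WT regions. With 50% coverage required they were 19.8% of peaks (difference -3.86), 18.1% of chains and 22.8% of WT regions, whose difference reversed to -9.63. With KO regions narrowed to their centre and the adjoining 500 bp left and right they were 8.21% of peaks (difference -3.12), 2.27% of centres and 4.29% of span. By peak centre the share was 19.8% and the difference -3.79.

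The peak difference was negative in 12 of 12 alternatives (-9.40 to -3.12). Its intervals count peaks of the same chain as independent and are too narrow, so how many excluded 0 is not read. All alternatives reuse the same region lists and are not independent of each other. The centre difference was negative in 7 of 10, and the width-weighted WT difference in 10 of 10 (-9.48 to -3.49), with the interval below 0 in 7. With 1 library per condition no replicate could be left out. Since depth is unknown, a missing KO region is a missing call. Samples could not be paired because no replicate samples exist, and pairing was limited to peaks of the same chain.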
